A study of Homo sapiens with 6 samples.

Results

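The genes examined here were the 4 Notch receptors NOTCH1, NOTCH2, NOTCH3 and NOTCH4, the 5 ligands JAG1, JAG2, DLL1, DLL3 and DLL4, and HEY1, a transcriptional repressor that is switched on by Notch. They were taken by name from the gene tables, 10 genes of the 57820 listed. Bulk RNA-seq covered untreated AID-DivA cells with 3 samples of WT and 3 of ARID1A-KO genotype, both with the replicate numbers 3 to 5. AID-DivA is a U2OS osteosarcoma line, and all samples of both genotypes carry an AsiSI nuclease that tamoxifen moves into the nucleus and auxin degrades, neither of which was given here. ARID1A, a DNA-binding subunit of the SWI/SNF chromatin remodelers, had been disrupted with Cas9 and guide RNAs against its exon 1. Which knockout clone these RNA samples came from is not stated in the methods. They may share 1 clone, and an effect of ARID1A and a difference between clones cannot be told apart.

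Notch receptors are cut by furin on their way to the cell surface and sit there as transmembrane proteins. A Jagged or Delta-like ligand on a neighbouring cell pulls on the receptor, which is then cut by ADAM10 and by gamma-secretase. The freed intracellular domain enters the nucleus, binds the DNA-binding protein RBPJ with a Mastermind-like coactivator, and switches on genes of the HES and HEY families, which encode repressors. In bone, Notch is known for holding back osteoblast maturation, and JAG1 and DLL4 are known for their roles in blood vessels.

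Between 54512105 and 84088708 counts fell on genes per sample, and replicates of a genotype always differed beyond counting noise (chi-square of at least 6.95 for each gene on average). ARID1A itself went from 166 to 178 CPM (counts scaled to a common library size) in WT samples to 25.1 to 27.5 in ARID1A-KO samples, a log2 fold change of -2.74. Of the osteoblast lineage genes, RUNX2, COL1A1, SPARC, SPP1 and ALPL were detected. COL1A2 had at most 20 counts in any sample, and SP7, BGLAP and IBSP had at most 12. The summed level of the 9 osteoblast genes was 1235 to 1295 CPM in WT against 726 to 809 in ARID1A-KO cells. Nearly all of this sum was SPARC and COL1A1, and 4 of the 6 genes tested were lower. Of 7 endothelial genes, ERG and TEK were lower, the other 4 tested did not pass the threshold, and CLDN5 was at 0 in every WT sample. Their summed level, most of it ERG, was 11.5 to 12.9 and 8.02 to 8.99 CPM. For 7 epithelial genes it was 727 to 839 and 497 to 521 CPM, nearly all of it KRT8 and KRT18, with 1 higher (EPCAM) and 3 lower, and for 6 leukocyte genes 1.76 to 2.95 and 0.441 to 1.0 CPM, with PTPRC lower and CD3E at 1 count or fewer. These calls stand beside 17.8% higher and 18.4% lower among all genes tested. In bulk RNA, a change in the level per cell and a change in the share of expressing cells cannot be told apart.

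In ARID1A-KO cells, NOTCH1, NOTCH4, JAG1, JAG2, DLL3 and HEY1 were higher at an adjusted p-value under 0.05. All 10 genes had enough counts to be tested, so 6 of 10 were higher, beside 17.8% of the 19599 genes tested, and 0 of 10 were lower, beside 18.4%. The median log2 fold change was 0.61 over the 10 genes and 0.007 over all genes tested. The CPM of all ARID1A-KO samples lay above those of all WT samples for 7 genes, the 6 above and DLL1, beside 24.8% of all genes tested. Of the receptors 2 of 4 were higher, and of the ligands 3 of 5.

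**Figure D1:**
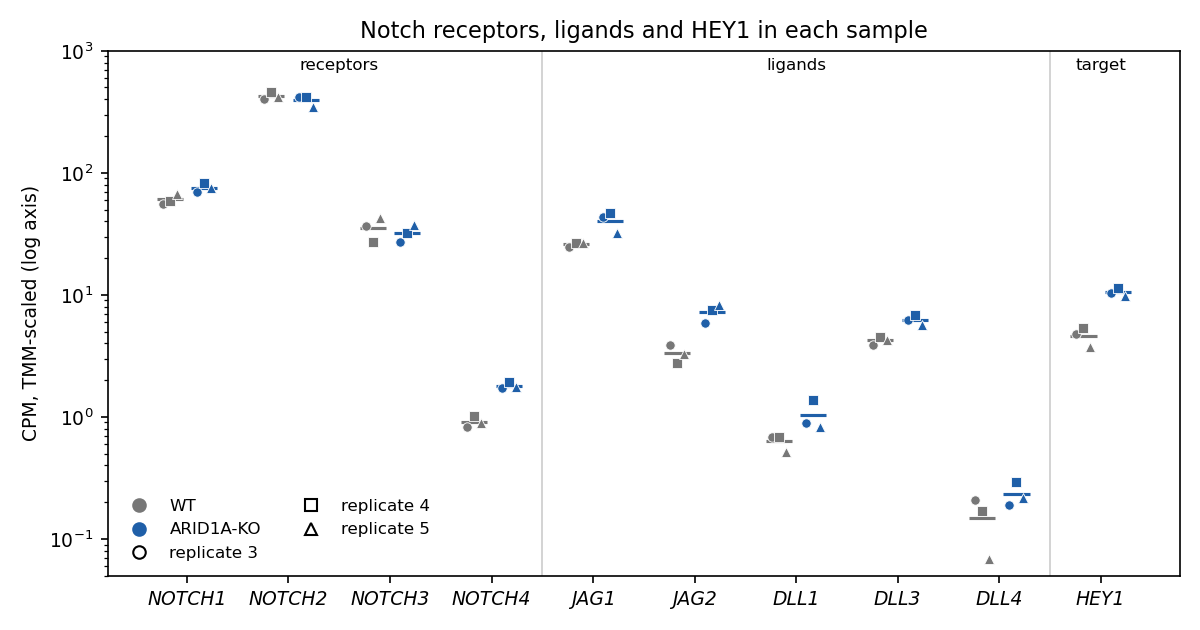
Level of each gene in each sample, in TMM-scaled CPM on a log axis, for WT (grey) and ARID1A-KO (blue); horizontal lines are means of 3 samples and marker shapes are replicate numbers. The ARID1A-KO samples lie above the WT samples for NOTCH1, NOTCH4, JAG1, JAG2, DLL1, DLL3 and HEY1 and overlap them for NOTCH2, NOTCH3 and DLL4.

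TPM (transcript levels on a common total per sample) divide counts by gene length and so allow levels of different genes to be compared. In WT cells, NOTCH2 was the most abundant, at 83.4 ± 5.56 TPM (SD, n = 3), followed by NOTCH1 at 20.1 ± 1.78. JAG1 at 13.6 ± 0.413 TPM and NOTCH3 at 13.3 ± 2.94 came next, and their ranges over samples overlapped. DLL3 at 5.31 ± 0.341 and HEY1 at 4.70 ± 0.865 TPM overlapped as well. JAG2 had 1.70 ± 0.294 TPM, DLL1 0.654 ± 0.108, NOTCH4 0.307 ± 0.0303 and DLL4 0.104 ± 0.0514, each below the range of the one before it. The order in ARID1A-KO cells differed only in HEY1, at 10.6 ± 0.757 TPM, which stood above DLL3, at 7.80 ± 0.685. There, NOTCH1 and JAG1 overlapped, and so did NOTCH3 and HEY1.

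The 4 receptors summed to 113 to 120 TPM in WT and to 110 to 121 in ARID1A-KO samples, so the ranges overlapped. NOTCH2 made up between 67.8% and 75.1% of this sum in WT and between 63.3% and 70.5% in ARID1A-KO samples, whereas NOTCH4 made up no more than 0.548% in any sample. The 5 ligands summed to 20.9 to 21.8 TPM in WT and to 30.05 to 38.2 in ARID1A-KO samples, without overlap. JAG1 held between 62.6% and 64.4% of the ligand sum in WT and between 57.4% and 65.6% in ARID1A-KO samples. DLL3, which is known to inhibit Notch in the same cell, held 23.6% to 25.9% in WT and 22.5% to 24.6% in ARID1A-KO samples.

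**Figure D2:**
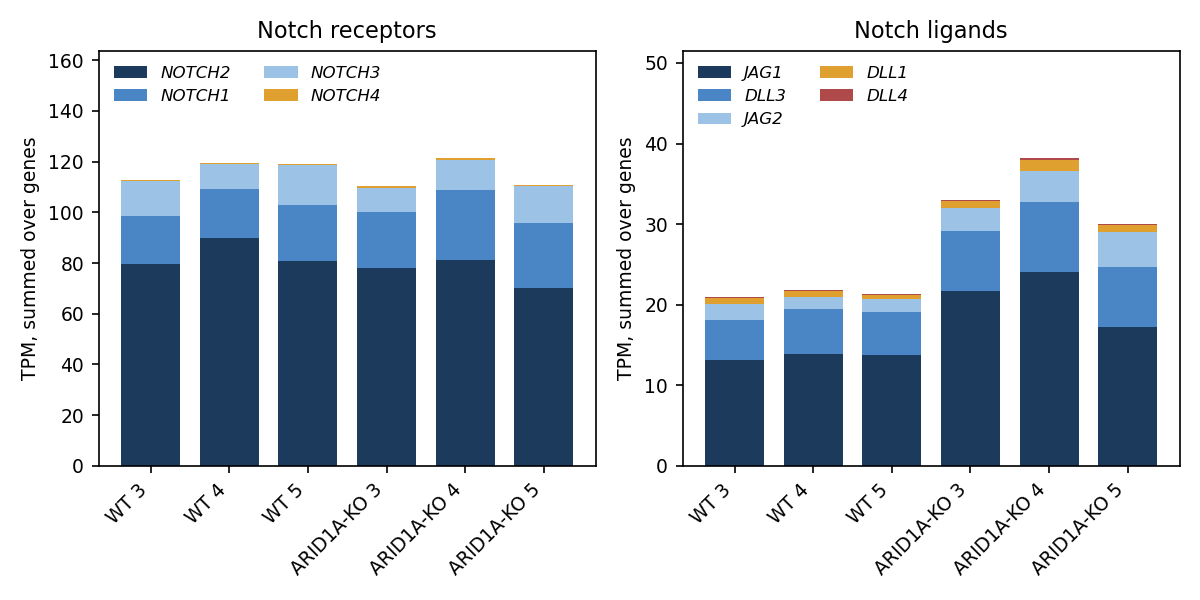
TPM of the 4 receptors (left) and the 5 ligands (right), stacked for each WT and ARID1A-KO sample on linear axes from 0. The receptor sum overlaps between genotypes, at 113 to 120 and 110 to 121 TPM, and the ligand sum does not, at 20.9 to 21.8 and 30.05 to 38.2 TPM.

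NOTCH1 (ENSG00000148400.9, GRCh37 chromosome 9 from 139388896 to 139440314, minus strand) is the receptor most often mutated in T-cell leukaemia. It had 55.9, 58.6 and 67.1 CPM in WT replicates 3, 4 and 5 and 69.6, 82.7 and 75.0 in ARID1A-KO replicates 3, 4 and 5. The groups were separated by a narrow gap between WT replicate 5 and ARID1A-KO replicate 3. Its difference was 0.32 on the log2 scale (SE 0.09, adjusted p = 0.0186, edgeR quasi-likelihood, Benjamini-Hochberg). This call rested on single samples, since the adjusted p from edgeR was 0.0841 without WT replicate 3 and 0.0826 without ARID1A-KO replicate 4. Its 111 tested neighbours within 5 Mb showed a median log2 fold change of 0.093, and with that median taken off NOTCH1 was left with 0.23 (adjusted p = 0.0764, edgeR).

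NOTCH4 (ENSG00000204301.5, chromosome 6 from 32162620 to 32191844, minus strand) is a receptor known mainly from endothelium. Its counts were low, at 55, 72 and 52 in WT and 118, 106 and 154 in ARID1A-KO replicates 3, 4 and 5. These corresponded to 0.824, 1.01 and 0.893 CPM in WT against 1.73, 1.93 and 1.75 CPM in ARID1A-KO cells, so the lowest ARID1A-KO sample stood well above the highest WT sample. The difference was 0.98 on the log2 scale (SE 0.16, adjusted p = 0.0015, edgeR), and the call held under every alternative run. GPSM3 overlaps the NOTCH4 gene on the same strand, so reads of the shared stretch cannot be told apart. Its counts went from 148 to 256 in WT to 532 to 657 in ARID1A-KO samples, a log2 fold change of 1.47, and the part of GPSM3 in the NOTCH4 difference was not tested. Of the 6 endothelial genes tested, 0 were higher (beside 17.8% of all genes tested) and 2 lower (beside 18.4%).

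NOTCH2 (ENSG00000134250.13, chromosome 1 from 120454176 to 120612240, minus strand), the receptor that dominated these cells, had 403, 461 and 416 CPM in WT and 415, 418 and 349 CPM in ARID1A-KO replicates 3, 4 and 5. The groups overlapped, with ARID1A-KO replicate 5 the lowest of all samples. Its log2 fold change was -0.12, with a 95% interval from -0.31 to 0.081 (adjusted p = 0.334, edgeR). NOTCH2NL (ENSG00000213240.7), a partial copy of NOTCH2 whose reads can be shared with it, was lower, at 9.92 ± 1.31 CPM in WT cells against 6.86 ± 0.375 with ARID1A-KO (SD, n = 3 each), with a log2 fold change of -0.53. The NOTCH2P1 pseudogene had 0 counts in every sample.

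NOTCH3 (ENSG00000074181.4, chromosome 19 from 15270444 to 15311792, minus strand), a receptor of vascular smooth muscle, had 36.7, 27.2 and 42.9 CPM in WT and 27.2, 32.2 and 37.3 CPM in ARID1A-KO replicates 3, 4 and 5. The WT samples spread more widely than the difference between the group means. Its log2 fold change was -0.14, with a 95% interval from -0.51 to 0.23 (adjusted p = 0.539, edgeR), so a fall to 0.702-fold or a rise to 1.17-fold lay inside the interval. Without WT replicate 5, the log2 fold change was 0.012.

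JAG2 (ENSG00000184916.4, chromosome 14 from 105607318 to 105635161, minus strand), a Jagged ligand, had the largest log2 fold change of the 9 receptors and ligands. It had 3.87, 2.79 and 3.27 CPM in WT and 5.86, 7.48 and 8.27 CPM in ARID1A-KO replicates 3, 4 and 5. Every ARID1A-KO sample exceeded every WT sample, and ARID1A-KO replicate 3 was the lowest of its group. The difference was 1.12 on the log2 scale (SE 0.17, adjusted p = 0.000885, edgeR), or 2.18-fold.

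JAG1 (ENSG00000101384.7, chromosome 20 from 10618332 to 10654694, minus strand), the ligand altered in Alagille syndrome, had 24.8, 26.7 and 26.5 CPM in WT and 43.2, 46.4 and 32.1 CPM in ARID1A-KO replicates 3, 4 and 5. The WT samples were close together, whereas ARID1A-KO replicate 5 stood between them and the other ARID1A-KO samples. The difference was 0.64 on the log2 scale (SE 0.12, adjusted p = 0.00352, edgeR). Its 24 tested neighbours within 5 Mb showed a median of -0.24, opposite in sign to that of JAG1. A second, short entry named JAG1 (ENSG00000270408.1), which lies inside the gene on the same strand, had 3 counts or fewer in each sample and was not tested.

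DLL3 (ENSG00000090932.6, chromosome 19 from 39989535 to 39999121, plus strand) encodes a Delta-like protein that is known to inhibit Notch in the same cell instead of activating it in a neighbour. It had 3.90, 4.51 and 4.30 CPM in WT and 6.17, 6.88 and 5.70 CPM in ARID1A-KO replicates 3, 4 and 5. The 2 ranges did not overlap, and both were narrow. The difference was 0.56 on the log2 scale (SE 0.12, adjusted p = 0.00685, edgeR), and the highest adjusted p over the alternatives was 0.0393.

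DLL1 (ENSG00000198719.7, chromosome 6 from 170591294 to 170599561, minus strand), an activating Delta-like ligand, had 46, 49 and 30 counts in WT and 61, 76 and 73 in ARID1A-KO replicates 3, 4 and 5. In CPM these were 0.689, 0.690 and 0.515 against 0.896, 1.38 and 0.829, and all ARID1A-KO samples were above all WT samples. Its log2 fold change of 0.69 did not pass the threshold (SE 0.25, 95% interval from 0.13 to 1.25, adjusted p = 0.0566, edgeR). With each sample left out, the adjusted p from edgeR ranged from 0.0331 without ARID1A-KO replicate 5 to 0.215 without ARID1A-KO replicate 4, where the log2 fold change was 0.44, and it was 0.0914 with DESeq2. Its 36 tested neighbours within 5 Mb showed a median of -0.49, and with that median taken off the log2 fold change was 1.18 (adjusted p = 0.00644, edgeR).

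DLL4 (ENSG00000128917.5, chromosome 15 from 41221538 to 41231237, plus strand), the ligand of sprouting endothelium, had 14, 12 and 4 counts in WT and 13, 16 and 19 in ARID1A-KO replicates 3, 4 and 5. The groups overlapped at this depth. The log2 fold change was 0.59 with a 95% interval from -0.32 to 1.5 (adjusted p = 0.288, edgeR), so a rise of up to 2.82-fold lay inside it.

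**Figure D3:**
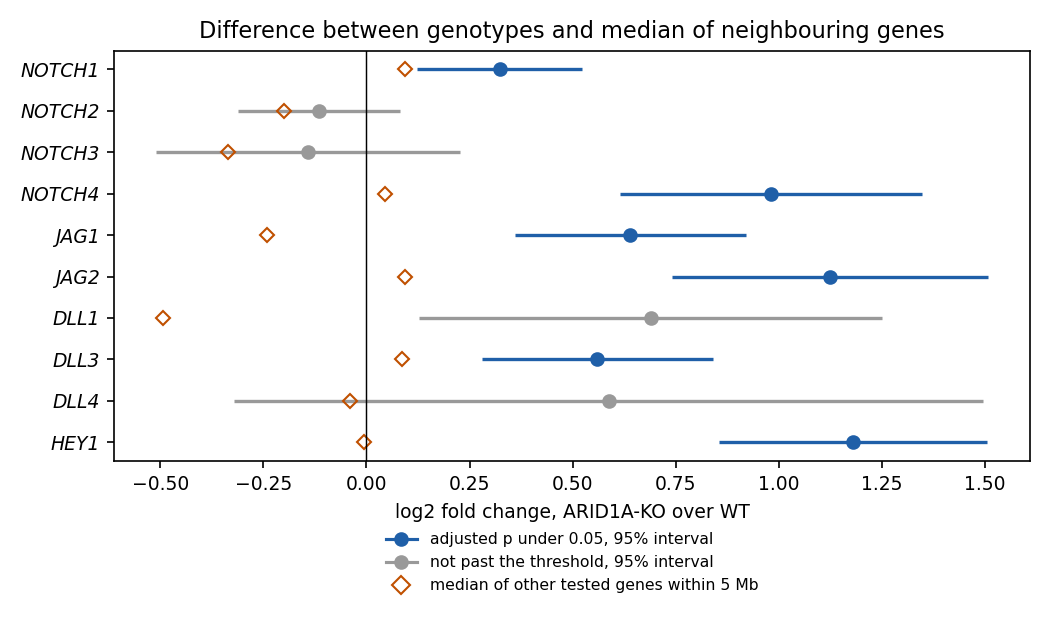
Log2 fold change of each gene in ARID1A-KO over WT cells with its 95% interval (blue, adjusted p under 0.05; grey, not past the threshold), and the median log2 fold change of the other genes tested within 5 Mb (open diamonds). The neighbours' median lies below the fold change of all 10 genes, inside the interval for NOTCH2, NOTCH3 and DLL4, and it is -0.24 for JAG1 and -0.49 for DLL1.

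HEY1 (ENSG00000164683.12, chromosome 8 from 80676245 to 80680098, minus strand) had the largest log2 fold change of the 10 genes. It had 4.78, 5.37 and 3.71 CPM in WT and 10.4, 11.4 and 9.73 CPM in ARID1A-KO replicates 3, 4 and 5. Replicate 5 was the lowest in both genotypes, and the lowest ARID1A-KO sample was still far above the highest WT sample. The log2 fold change was 1.18 (SE 0.14, 95% interval from 0.86 to 1.5, adjusted p = 0.000257, edgeR), or 2.27-fold, and it ranged from 1.04 to 1.30 over the alternatives. Its 38 tested neighbours within 5 Mb showed a median of -0.0068.

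The genes whose pattern over the 6 samples was closest to that of HEY1 were KCND1, CTD-2292P10.4, CD33, ZNF300 and TRIM9. Their log2 CPM, each taken as a deviation from the gene's own mean, differed from those of HEY1 by a root mean square of 0.068, 0.088, 0.10, 0.11 and 0.11, in that order, among 13080 genes compared. This likeness is a description over 6 samples in 2 genotypes.

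HEY1 belongs to a family of basic helix-loop-helix repressors, and the other 10 members of the HES and HEY family were taken as a list. All 4 that had enough counts to be tested, HES1, HES6, HES7 and HEYL, were higher in ARID1A-KO cells, beside 17.8% of all genes tested. Leaving out HEYL, which was next to absent in WT cells, 3 of 3 were higher. The other 6, HES2, HES3, HES4, HES5, HEY2 and HELT, had 9 counts or fewer in every sample. HES1, the most widely used Notch target, had 10.1, 10.5 and 10.9 CPM in WT and 16.4, 17.6 and 16.6 CPM in ARID1A-KO replicates 3, 4 and 5. The spread within each genotype was small beside the gap between them, and the log2 fold change was 0.69 (SE 0.08, adjusted p = 0.000197, edgeR). HES7, an oscillating gene of the somite clock, had 1.29, 1.78 and 1.6 CPM in WT against 4.08, 4.71 and 5.02 CPM in ARID1A-KO cells, and differed by 1.57 on the log2 scale (SE 0.16, adjusted p = 0.000107, edgeR). HES6, which is known to antagonise HES1, had 1.66, 1.14 and 1.74 CPM in WT against 2.07, 2.40 and 3.01 CPM in ARID1A-KO cells. Its log2 fold change of 0.73 (adjusted p = 0.0238, edgeR) did not pass without WT replicate 4 (0.0584), ARID1A-KO replicate 4 (0.0536) or ARID1A-KO replicate 5 (0.069).

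HEYL (ENSG00000163909.6, chromosome 1 from 40089825 to 40105617, minus strand), a relative of HEY1, was almost not detected in WT cells. It had 0, 1 and 0 counts in WT and 249, 228 and 339 in ARID1A-KO replicates 3, 4 and 5, at 3.66, 4.15 and 3.85 CPM in the latter. The ratio of the pooled CPM was 757, with an exact 95% interval from 136 to 29953 that covers counting error only, and the only WT count was in replicate 4. NRARP (chromosome 9 from 140194083 to 140196703, minus strand), a Notch target that encodes an inhibitor of the Notch transcription complex, had 0 counts in each WT sample and 25, 20 and 40 in ARID1A-KO replicates 3, 4 and 5. At a floor of 3 counts over the WT group, or 0.0153 CPM, this was at least 26.3-fold higher. That bound holds for the sense strand alone. The opposite strand had 19, 19 and 4 counts in WT and 14, 23 and 44 in ARID1A-KO replicates 3, 4 and 5, and with both strands counted the log2 fold change of NRARP was 1.86 (adjusted p = 0.00517, edgeR). HEYL and NRARP passed the filter on low counts only through the ARID1A-KO samples, so their calls lend nothing to the counts of their lists.

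**Figure D4:**
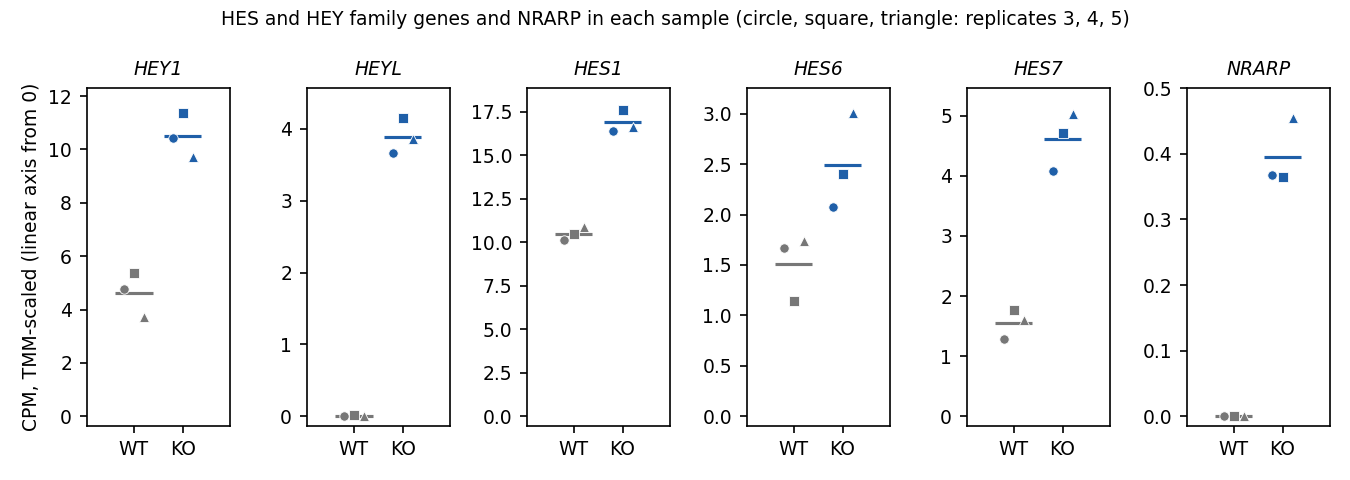
TMM-scaled CPM of HEY1, HEYL, HES1, HES6, HES7 and NRARP in each WT (grey) and ARID1A-KO (blue, KO) sample, on linear axes from 0 that differ between panels; lines are means of 3 samples. HEYL and NRARP lie at or next to 0 in WT, and the other 4 genes are present in WT and higher in ARID1A-KO samples without overlap.

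The core of the sequence bound by RBPJ, TGGGAA, was searched on both strands of the RefSeq promoters, from 250 bases before to 50 after the start of each gene (GRCh38.p14). It was found in 24.0% of all 35116 promoters, and the longer GTGGGAA, which contains it, in 6.25%. The table held promoters of 7 of the 10 genes (not DLL1, DLL3 or HEY1), and 0 of these 7 contained TGGGAA in this window. Among HES1, HES6, HES7, HEYL and NRARP, it was found in HES1 and HEYL, both of which also contained GTGGGAA. In HES1 the matches began 84 and 70 bases before the start on the same strand. In HEYL, 1 began 99 bases before the start on the same strand and 1 began 178 bases before it on the opposite strand. The 200 bases before the start are printed for both genes to show these matches in capitals, and for JAG2, the receptor or ligand gene with the largest change, in which there was none.
HES1, chr3:194135948-194136147, plus strand: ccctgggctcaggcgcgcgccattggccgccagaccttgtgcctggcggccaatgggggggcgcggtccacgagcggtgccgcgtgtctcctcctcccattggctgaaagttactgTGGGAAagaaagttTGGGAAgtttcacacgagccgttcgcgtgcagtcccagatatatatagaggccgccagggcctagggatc
HEYL, chr1:39639644-39639843, minus strand: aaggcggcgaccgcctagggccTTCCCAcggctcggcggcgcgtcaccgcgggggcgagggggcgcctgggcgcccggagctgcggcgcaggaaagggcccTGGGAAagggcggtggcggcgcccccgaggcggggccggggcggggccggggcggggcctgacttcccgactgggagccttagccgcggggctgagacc
JAG2, chr14:105168777-105168976, minus strand: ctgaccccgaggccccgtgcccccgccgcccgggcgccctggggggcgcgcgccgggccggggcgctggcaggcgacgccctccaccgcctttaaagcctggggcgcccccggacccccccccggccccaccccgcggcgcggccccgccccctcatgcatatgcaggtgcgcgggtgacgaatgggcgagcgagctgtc
A match is a description of these letters and not a binding site, and binding of RBPJ was not measured.

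Other genes of the pathway were followed as 8 lists with 71 genes in all, the HES and HEY family among them, and 62 of these had enough counts to be tested. Of these 62, 19 were higher, 12 were lower and 31 did not pass the threshold, beside 36.2% of all genes tested that passed in either direction, and their median log2 fold change was 0.073. The 19 include HEYL and NRARP and the 12 include CNTN6, which passed the filter on low counts through a single genotype each. Without WT replicate 5 or without ARID1A-KO replicate 3, 7 were lower in place of 12. The counts of the single lists stand beside 17.8% higher and 18.4% lower among all genes tested.

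Of the 9 genes of receptor cleavage, 4 were higher (beside 17.8% of all genes), 0 were lower (beside 18.4%) and 5 did not pass. FURIN, the protease of the secretory pathway, went from 158 ± 26.9 to 237 ± 22.2 CPM (SD, n = 3 each), a log2 fold change of 0.59. PSENEN, a subunit of gamma-secretase, went from 14.3 ± 1.06 to 21.2 ± 1.24 CPM (0.57 on the log2 scale). ADAM10 and ADAM17, which make the cut before gamma-secretase, had log2 fold changes of -0.13 and -0.080 and did not pass the threshold.

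Of the 5 genes that add sugars to the receptors, 2 were higher and 2 lower. POFUT1, which adds fucose, had a log2 fold change of 0.32 and RFNG, a Fringe enzyme, 0.40. POGLUT1, which adds glucose, had -0.51 and LFNG, another Fringe enzyme, -0.25. The other genes within 5 Mb of POFUT1 had a median of 0.27 and those of POGLUT1 one of -0.43, and with it taken off neither passed the threshold, at log2 fold changes of 0.049 and -0.075. RFNG missed it narrowly in that fit (adjusted p = 0.0511, edgeR). LFNG lost its call without either of the samples numbered 3 and without WT replicate 5 or ARID1A-KO replicate 4, with an adjusted p from edgeR of up to 0.137.

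Among 6 genes of ligand endocytosis, NEURL1B, a ubiquitin ligase that makes ligands active, was lower, from 85.1 ± 7.36 to 57.3 ± 4.29 CPM (SD, n = 3 each; log2 fold change -0.57), and the other 5 did not pass. Among the 5 noncanonical ligands tested, DLK2 was higher (1.01 on the log2 scale, 0.631 ± 0.0996 to 1.27 ± 0.194 CPM). ABCC10 overlaps DLK2 on the opposite strand, and with both strands counted the log2 fold change of DLK2 was 0.62 (adjusted p = 0.0112, edgeR). CNTN6, a neural adhesion protein, was lower (-2.94), with 53, 13 and 40 counts in WT and 1, 3 and 11 in ARID1A-KO samples. It passed the filter on low counts only through the WT samples, so its call lends nothing to the counts of lower genes. Without ARID1A-KO replicate 5 its log2 fold change was -3.99, and without each of the other samples in turn it lay between -3.37 and -2.49.

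Of the 11 inhibitors and turnover genes, 5 were higher (beside 17.8% of all genes) and 3 lower (beside 18.4%). Without NRARP, 4 of 10 were higher. Beside NRARP, the higher genes included DTX1, a Deltex ubiquitin ligase and known Notch target, which went from 4.36 ± 0.212 to 8.51 ± 0.96 CPM (SD, n = 3 each; log2 fold change 0.96, adjusted p = 0.000287, edgeR). ITCH, a ubiquitin ligase that acts on Notch, went from 52.4 ± 1.41 to 94.4 ± 7.52 CPM (log2 fold change 0.85.) FBXW7, which marks the Notch intracellular domain for degradation, was lower (-0.97 on the log2 scale), from 26.7 ± 0.731 to 13.7 ± 0.632 CPM. For the 32 tested neighbours of FBXW7 within 5 Mb the median was -0.88, and with that median taken off its log2 fold change was -0.089 (adjusted p = 0.391, edgeR). DTX3L (-0.80) and AAK1 (-0.19) were also lower, and each lost its call under 6 or more of 13 alternatives. The groups overlapped for DTX3L. RP11-427H3.3 overlaps AAK1 on the same strand, with 4077 to 6841 counts per sample and a log2 fold change of -0.26. The part of RP11-427H3.3 in the AAK1 difference was not tested.

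In the nucleus, RBPJ was lower, with 66.9, 70.9 and 65.8 CPM in WT and 55.2, 53.9 and 48.3 CPM in ARID1A-KO replicates 3, 4 and 5. These did not overlap, and the log2 fold change was -0.37 (SE 0.07, adjusted p = 0.00286, edgeR). Of the 9 coactivators tested, RBPJ included, 1 was higher and 3 were lower. MAML2, a Mastermind-like coactivator, had a log2 fold change of -0.75 and KAT2B, an acetyltransferase, -0.37, whereas MAML3 had 0.59, or 1.21 with its neighbours' median of -0.62 taken off. The groups overlapped for MAML3, and its call was lost in 4 of the 6 fits without 1 sample, with an adjusted p from edgeR of up to 0.16 without ARID1A-KO replicate 4. KAT2B lost its call in 4 of these 6 fits, with an adjusted p of up to 0.0728 without ARID1A-KO replicate 4, and with its neighbours' median taken off (0.0943). MAML1 did not pass, at 0.030.

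Of the 13 corepressor genes tested, 2 were higher and 2 lower. TLE3, a Groucho corepressor that works with HES proteins, had a log2 fold change of 0.43 and HDAC1, a histone deacetylase, 0.26. KDM5A, a histone demethylase that acts with RBPJ, had -0.45. Its 51 tested neighbours within 5 Mb had a median of -0.23. Over the 13 alternatives the log2 fold change of KDM5A ranged from -0.46 to -0.21, and it kept its call. HDAC1 lost its call without ARID1A-KO replicate 3 (adjusted p = 0.0517, edgeR).

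**Figure D5:**
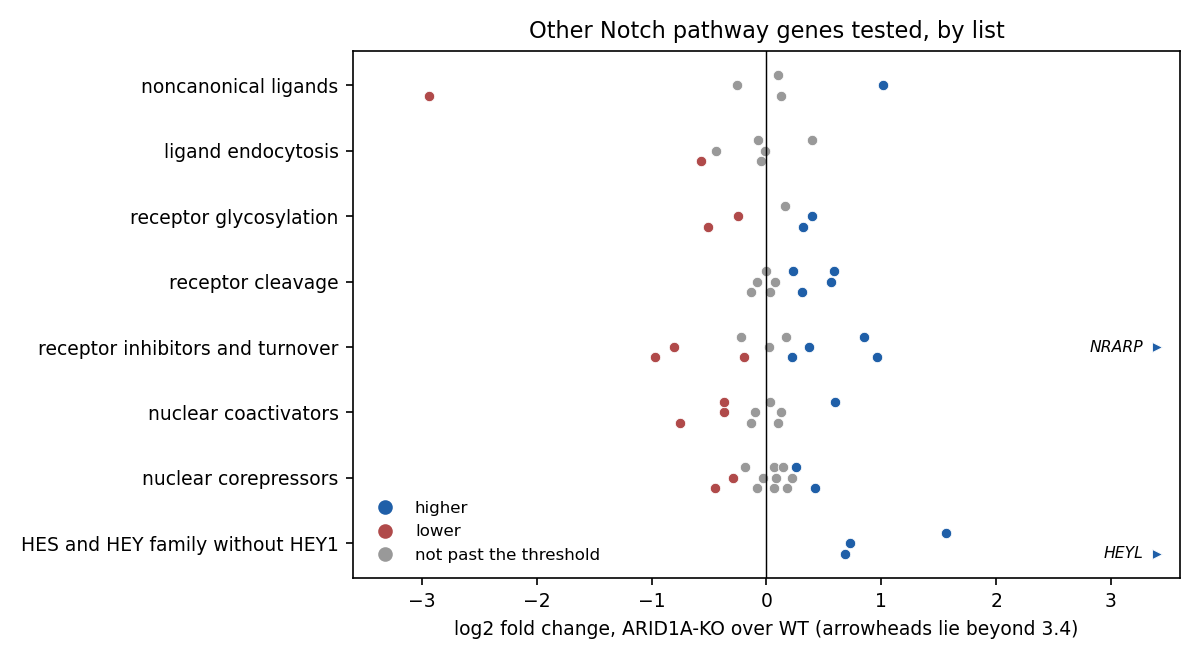
Log2 fold change in ARID1A-KO over WT cells of the 62 other Notch pathway genes tested, by list (blue, higher; red, lower; grey, not past the threshold). Of these, 19 are higher and 12 lower, and HEYL and NRARP, drawn as arrowheads, lie beyond the axis because they had 1 and 0 counts in WT.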

How the data were processed

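RNA-seq of 3 WT and 3 ARID1A-KO samples was analysed. The labels give the molecule as polyA RNA, whereas the protocol names a stranded kit for total RNA. Versions of STAR and featureCounts are not given in the sources used here. Reads had been aligned by STAR (GRCh37), and the authors deposited unnormalized featureCounts counts for each gene, with and without regard to strand; the reverse-stranded column was used. The authors also deposited TPM values, and the column that has the same total over all genes in every sample was used. FPKM columns were not used.

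Counts were filtered with filterByExpr, TMM-normalized and compared with edgeR 4.0.16 (quasi-likelihood test, Benjamini-Hochberg over all genes, threshold 0.05) in R 4.3.3. The fit held all 6 samples without covariates. Fits were tested on simulated data. CPM use TMM-scaled library sizes. Groups come from the labels. The paper's figure legends for the RNA-seq describe the replicates as independent experiments. Whether the ARID1A-KO samples came from separate clones is not stated, so p-values measure the spread between these samples.

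Members and lists were chosen with earlier results of these data known. The text names all members, RBPJ, HES1, NOTCH2 copies, up to 3 called genes per list and direction, and the 5 genes most like HEY1 with a mean log2 CPM over 1. ADAM10, ADAM17, MAML1 and GPSM3 were named after their values were seen. Some genes that the lists count are not reported here by name. NEURL1 was matched by gene ID; NOTCH2NLA, NOTCH2NLB, NOTCH2NLC, NOTCH2NLR and PECAM1 had no match. HEYL's interval is exact (SciPy 1.17.1).

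Alternatives were DESeq2 1.42.0, edgeR with RLE factors, unstranded counts, no filter, a minimum of 10 counts per sample, the replicate number as a block, each sample left out, and an offset by the median change of neighbours within 5 Mb. TPM was also taken unstranded and as log2(TPM + 1). The list counts without HEYL and without NRARP were added after seeing the data.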

Additional observations from a re-analysis of the deposited data

How the results depend on the processing

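The number of members called higher was 6 as reported and 5 to 7 with each sample left out, and 0 were lower under every alternative run. Without 1 sample, the pathway genes numbered 15 to 18 higher and 7 to 13 lower, and all genes 2538 to 3405 higher and 2747 to 3698 lower. DLL4, CNTN6, HEYL and NRARP gave no value at a minimum of 10 counts per sample. NOTCH4, JAG1, JAG2, DLL3 and HEY1 kept their call in all 13 alternatives. With the neighbours' median taken off, the log2 fold change of NOTCH2 turned to 0.084 and that of NOTCH3 to 0.19, while the pathway genes numbered 13 higher and 10 lower. NOTCH3 ranged from -0.30 to 0.012 with each sample left out. DLL1 also passed with no filter (adjusted p = 0.0251, edgeR) and with unstranded counts (0.038).

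The replicate numbers are shared by the genotypes, but the deviations of same-numbered samples from their group means correlated at -0.24, 0.50 and 0.33, so the numbers were not taken as pairs, and not every sample correlated best with its own number. With the replicate number as a block, 7 members were higher and 0 lower, the seventh being DLL1 (adjusted p = 0.0337, edgeR), with 18 pathway genes higher and 13 lower and 3708 of all genes higher and 3769 lower.

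Without the filter, 4022 genes were higher and 4201 lower. Of the 20 TPM levels recomputed unstranded, 0 moved by more than 1 SD. The same held for levels taken as log2(TPM + 1) and without 1 sample. Leaving out 1 of 3 samples cannot move a mean by 1 SD, so those levels are no check. Depth limits NOTCH4, DLL1, DLL4, NRARP, DLK2 and CNTN6, which had 154 counts or fewer in every sample.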
